A study of Mus musculus with 149 samples.

Results

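The genes described here are the 10 genes of hepcidin and iron handling named Hamp, Hamp2, Hfe, Tfr2, Tfrc, Trf, Slc40a1, Hpx, Cp and Fth1, chosen by name from the 20308 mouse genes of the deposited table. All 10 were above 0 in at least 20% of the cells, the limit that 8813 genes passed. The table holds 149 single cells from 1 wildtype male C57BL/6 mouse aged 8 weeks, a liver cell suspension enriched for hepatocytes by perfusion and slow spins. Cells were caught on Fluidigm C1 chips with traps of 17 to 25 µm (large, 80 cells), 10 to 17 µm (medium, 30 cells) and 5 to 10 µm (small, 39 cells), with no treatment and no second animal. Each chip is 1 sample of the same mouse, so its cells are no replicates of an animal. Differences are therefore described without tests, and SDs are spreads over cells or over chips.

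Hepatocytes set the iron level of the whole body. They make hepcidin, a small peptide hormone that binds the iron exporter ferroportin and sends it to degradation, so that less iron enters plasma from the gut and from macrophages that recycle red cells. Hepcidin transcription follows plasma iron through BMP signals from sinusoidal endothelial cells, aided at the hepatocyte surface by Hfe and by Tfr2, and it follows inflammation through interleukin-6 and Stat3. The same cells secrete the plasma carriers of iron, heme and copper. Along the liver lobule blood runs from the portal tract (periportal) to the central vein (pericentral), and hepatocytes differ in their gene expression along that path.

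Hamp encodes hepcidin and Hamp2 is its duplicated neighbour on chromosome 7. In the GENCODE annotation of mm10 Hamp spans 30942368 to 30944032 and Hamp2 spans 30922372 to 30924681, both on the minus strand with 3 exons each. Their longest coding transcripts of 410 and 437 bases were 94.6% identical over 410 aligned bases. Of the 25-base windows of the Hamp transcript, 40.4% also occur in the Hamp2 transcript, so reads could be split between the copies and the level of each is uncertain. The promoters are shown because values of both genes moved together over cells, as described below. RefSeq holds a promoter for 8 of the 10 genes. These are the 100 bases from 51 to 150 before the RefSeq start of Hamp (chr7:30944080-30944179, GRCm38.p6, minus strand) and the bases of the Hamp2 promoter aligned to them (chr7:30924229-30924328, same strand), 5′ to 3′, with matches to the 2 motifs searched in capitals:
Hamp: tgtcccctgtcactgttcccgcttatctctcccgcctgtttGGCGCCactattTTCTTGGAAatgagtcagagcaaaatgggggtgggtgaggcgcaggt
Hamp2: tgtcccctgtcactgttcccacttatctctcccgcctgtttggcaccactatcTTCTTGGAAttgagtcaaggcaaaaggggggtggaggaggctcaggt

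The stretches share 90 of 100 bases. The Hamp2 stretch lies inside the GENCODE span of Hamp2, so the RefSeq start used for it is not the 5′ end of that span. GGCGCC, the letters of BMP response elements that bind Smad proteins, stands at positions 42 to 47 of the Hamp stretch, counted from 1 at its 5′ end. The aligned Hamp2 stretch differs there by G45A (the Hamp base first), and GGCGCC was not found in the 250 bases before the RefSeq start of Hamp2. TTCNNNGAA, a form bound by Stat proteins, stands at positions 54 to 62 in both. Both motifs read the same on either strand and do not overlap each other. Of all 32851 RefSeq promoters, 9.59% hold GGCGCC and 7.02% hold TTCNNNGAA in the 250 bases before the start. Among the genes described here with a promoter, GGCGCC occurs in Hamp and Tfrc and TTCNNNGAA in Hamp and Hamp2. A match is a run of letters, and binding was not measured.

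Values below are the authors' normalised expected counts, without a unit of molecules. The chips differed strongly in ERCC spike-in, synthetic RNA added to the lysis mix: its median share of the summed value was 3.66% (large), 82.7% (medium) and 82.8% (small), and the median cell had 7389.5, 2306.5 and 3087 mouse genes above 0. A share under 50% was found in 64, 7 and 12 cells, 83 in all. The summed values of cells fell into separate ranges, with 65 cells at up to 1927012 and 84 cells at 3215204 or more, and 57 of the 65 were large-chip cells. Levels within the large chip are therefore given for its 64 cells under 50% spike-in and, where it matters, for the 57 of them with a sum under 3000000, both sets chosen after seeing the data. All 10 hepatocyte markers were found at 10 or more in the median large-chip and medium-chip cell and 9 of 10 in the median small-chip cell, with at least 6 in every cell. Markers of other cell types were present in some cells: 3 or more of 10 endothelial markers in 7 large-chip and 3 small-chip cells, and 3 or more of 10 Kupffer cell markers, those of the liver's macrophages, in 1 large-chip, 4 medium-chip and 2 small-chip cells.

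Hpx, Trf and Fth1 were the most abundant of the 10 genes. Per kilobase of the longest coding transcript, the median over the 64 cells was 2803 for Hpx (hemopexin, the plasma scavenger of free heme), 2029.8 for Trf (transferrin, the plasma carrier of iron) and 1994 for Fth1 (the heavy subunit of ferritin, which stores iron). Quartiles overlapped among these genes, from 1280.3 to 3892 for Hpx, 1555 to 2495 for Trf and 1678 to 2348 for Fth1. Hamp followed at 584 per kilobase (quartiles 137 to 1247) and Cp, ceruloplasmin, the copper-carrying oxidase of plasma iron, at 431 (329 to 551), again overlapping. Hamp2 at 18.3, Tfr2 at 15.5 and Slc40a1 at 15.1 were close to each other, and Hfe at 1.31 and Tfrc at 1.30 were lowest, with quartiles of 0.138 to 7.67 and 0 to 5.93. The remaining values in the text are per gene and not per kilobase.

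Hamp was nearly everywhere and very uneven. It was above 0 in 78 of 80 large-chip cells (97.5%, exact Clopper-Pearson 95% interval 91.3% to 99.7%), in 30 of 30 medium-chip and in 37 of 39 small-chip cells. The lowest, median and highest large-chip values were 0, 232 and 2395. They were 0.91, 233 and 6561 among medium-chip cells, and 0, 94.8 and 1595 among small-chip cells. The chips overlapped over nearly their whole range, and the highest value came from medium-chip cell 21, which also held 3 Kupffer cell markers at 10 or more. On the log2(value + 1) scale the SD of Hamp over the 64 cells was 2.51, higher than that of 93.8% of 4406 genes with a mean above the median tested gene, whose median SD was 1.83. Fth1 was the opposite, with an SD of 0.56, higher than only 0.386% of those genes. Cp (0.94), Trf (1.02), Hpx (1.34) and Tfr2 (1.46) also lay under the median gene, and Hfe (2.29), Slc40a1 (2.44) and Tfrc (2.49) lay above it. The genes compared were not matched in level to these, so the part of abundance in the SDs was not tested. The intervals on shares of cells here and below cover counting error only.

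Hamp2 was lower and followed Hamp. It was above 0 in 60 of 80 large-chip cells (75%, interval 64.1% to 84%), 18 of 30 medium-chip and 17 of 39 small-chip cells, with medians of 6.83, 3.19 and 0. Among the 64 cells, 53 held both genes, and Hamp2 stood at a median of 2.93 per 100 of Hamp (quartiles 2.30 to 4.06). Hamp2 exceeded Hamp in 3 of these cells. The ratio was highest in large-chip cell 76, at low values of both (Hamp2 8.25, Hamp 5.12). It was next highest in large-chip cell 38, with Hamp2 at 1346 and Hamp at 978, the highest Hamp2 value of all cells, ahead of 112 in medium-chip cell 21. In large-chip cell 55 Hamp2 was 80.8 and Hamp 70.2. The Spearman rho between both genes was 0.771 over the 64 cells, and 0.719 (large), 0.721 (medium) and 0.853 (small) over all cells of each chip. The cells share the mouse, the chip and the normalisation, and the copies share sequence, so this rho describes the values and not 2 independent measurements.

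**Figure D1:**
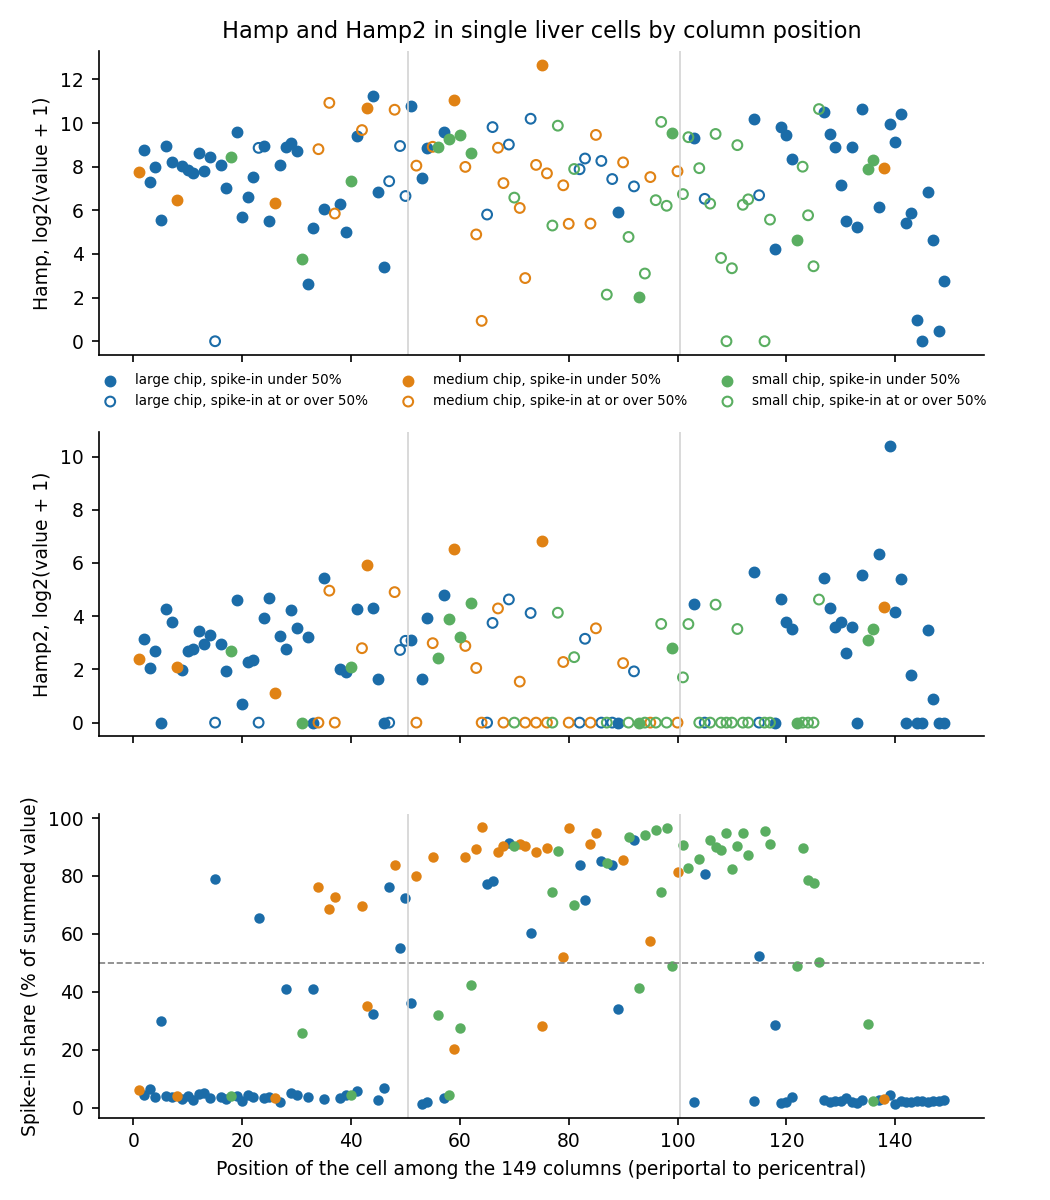
Hamp (top) and Hamp2 (middle) as log2(value + 1), and the spike-in share in % of the summed value (bottom), against the position of each cell among the 149 columns; points are cells, colours are chips, open points have a spike-in share of 50% or more, and grey lines cut the columns into 3 bins of equal size. Hamp values of the first and middle bins lie at similar heights (medians 227 and 236), the last bin is lower (106), and most cells of the middle bin have a high spike-in share.

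Whether hepcidin peaks in the middle of the lobule was examined first along the order of the columns in the table. How the authors ordered the columns, and whether any of the 10 genes was used for it, is not given in the sources used here. The order was compared with a landmark score, the mean z-score within chip of 6 pericentral genes (Glul, Cyp2e1, Cyp1a2, Oat, Gulo, Slc1a2) minus that of 6 periportal genes (Cyp2f2, Ass1, Asl, Hal, Sds, Pck1), which uses none of the 10 genes. Whether any landmark was used to order the columns is not given either, so order and score may not be independent. The columns ran from the periportal to the pericentral end, with a rho of 0.904 between position and score over the 149 cells (0.935 large, 0.906 medium, 0.816 small). Cells were cut along an axis into 3 or 5 bins of equal size. Position had no rank relation with the spike-in share over all cells pooled (rho -0.002). Within chips rho was -0.366 (large), 0.372 (medium) and 0.270 (small), and between score and share it was -0.351, 0.488 and 0.129. The middle of 3 bins along the column order also stood apart. It held 14 large-chip, 20 medium-chip and 16 small-chip cells with a median spike-in share of 83.8% and 2384 genes above 0, against 4.34% and 7308 genes in the first bin and 3.46% and 7384 genes in the last. The part of these differences in the values along the order was not tested.

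Along the column order Hamp was level in the first and middle bins and lower in the last. Its mean log2 value was 7.47 ± 2.15 (SD, 50 cells), 7.46 ± 2.43 (50 cells) and 6.62 ± 3.02 (49 cells), and its median 227, 236 and 106. The middle bin exceeded the mean of both ends by 0.42 on the log2 scale, less than the SD over cells in any bin. Within the chips this difference was 0.60 (large), -1.52 (medium) and -0.37 (small), with an SD over the 3 chips of 1.06, and it was -0.08 with bins taken within chips and combined. The median of all tested genes was -1.32, so that most genes were lower in the middle bin, and Hamp stood above 99.6% of them. In the cells under 50% spike-in, with the median tested gene at -0.44, the difference of Hamp was 0.38, above 92.4% of tested genes. A gene was called middle-high where the mean log2 value of its middle bin was at least 1 above each end. With 3 bins over all cells none of the 10 genes met this rule along the column order, and 0.0681% of all tested genes did.

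Along the landmark score, with 3 bins taken within each chip and combined, the mean log2 value of Hamp was 7.62 ± 1.81 (50 cells) in the periportal bin, 7.25 ± 2.73 (50 cells) in the middle and 6.68 ± 2.99 (49 cells) in the pericentral bin. The middle exceeded the mean of both ends by 0.10, and this difference was 0.70 (large), -0.24 (medium) and -0.87 (small), with an SD of 0.79, against -0.96 for the median tested gene. By the middle-high rule 0 of the 10 genes were called here too, against 0.0681% of tested genes, and the chips went in opposite directions. With 5 bins the difference was 1.23, with means of 7.62, 7.23, 7.88, 7.47 and 5.70 from the periportal to the pericentral end, so that the pericentral bin had the lowest mean.

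In the large-chip cells with little spike-in, Hamp was higher in the middle and next to the pericentral end and then low at that end. Over the 64 cells the means of 5 bins of the score were 7.30 ± 2.02, 7.496 ± 1.17, 8.24 ± 2.13, 8.49 ± 1.83 and 4.85 ± 3.49 on the log2 scale (13, 13, 13, 13 and 12 cells), and the medians were 249, 224, 392, 567 and 30.1. The ranges of the bins overlapped: from the periportal to the pericentral end values ran from 5.12 to 774, 30.7 to 543, 9.5 to 2395, 41.2 to 1433 and 0 to 1574.5. The middle exceeded the mean of both ends by 2.17 with 5 bins and by 1.22 with 3 bins (1.07 with 3 bins over the 57 cells), against -0.05 and 0.01 for the median tested gene. Along the column order the 64 cells gave 0.43 with 3 bins and 1.12 with 5 bins, above 85.8% and 96.4% of tested genes. Hamp still did not meet the middle-high rule in the 64 cells, since the middle of 5 bins was less than 1 above the periportal one, and 1.95% of tested genes met it. Bin 4, next to the pericentral end, held the highest mean.

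In all, the middle difference of Hamp was computed for 32 combinations of cell set, axis and number of bins, which share cells and are not independent. It was above 0 in 26 and below 0 in 6, and ran from -1.70 to 2.17. The middle-high rule was met in 3, all of them with 5 bins: the score in all 80 large-chip cells (1.98, where 0.182% of tested genes met it), and, in the 83 cells under 50% spike-in, the column order (1.96, 0.499%) and the score (2.15, 0.647%). Slc40a1 met it in 1 combination, along the score in the 64 cells, and the other 8 genes in 0.

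The spread of Hamp was itself unequal along the axis. Among the 64 cells, the log2 SD of Hamp was 1.13 in the first of 3 bins of the column order (22 cells, from 44 to 774) and 3.34 in the last (21 cells, from 0 to 1574.5). The increase of 2.21 was above that of 99.8% of the 4406 genes compared, whose median change was -0.33. Along the score it was 1.58, above 99.4%. Hamp2 went from 1.13 to 2.73 along the column order, while the change of the other 8 genes lay between -0.77 and -0.01. The last 10 columns of the table, a stretch chosen after its values were seen, are all large-chip cells with 6519 to 8784 genes above 0 and a spike-in share of at most 2.55%. Hamp there was 567, 1361, 41.2, 57.97, 0.94, 0, 113, 24.1, 0.39 and 5.75 in column order. Of these, 567 and 1361, which came first, were above the large-chip median of 232, and all later values were below it.

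**Figure D2:**
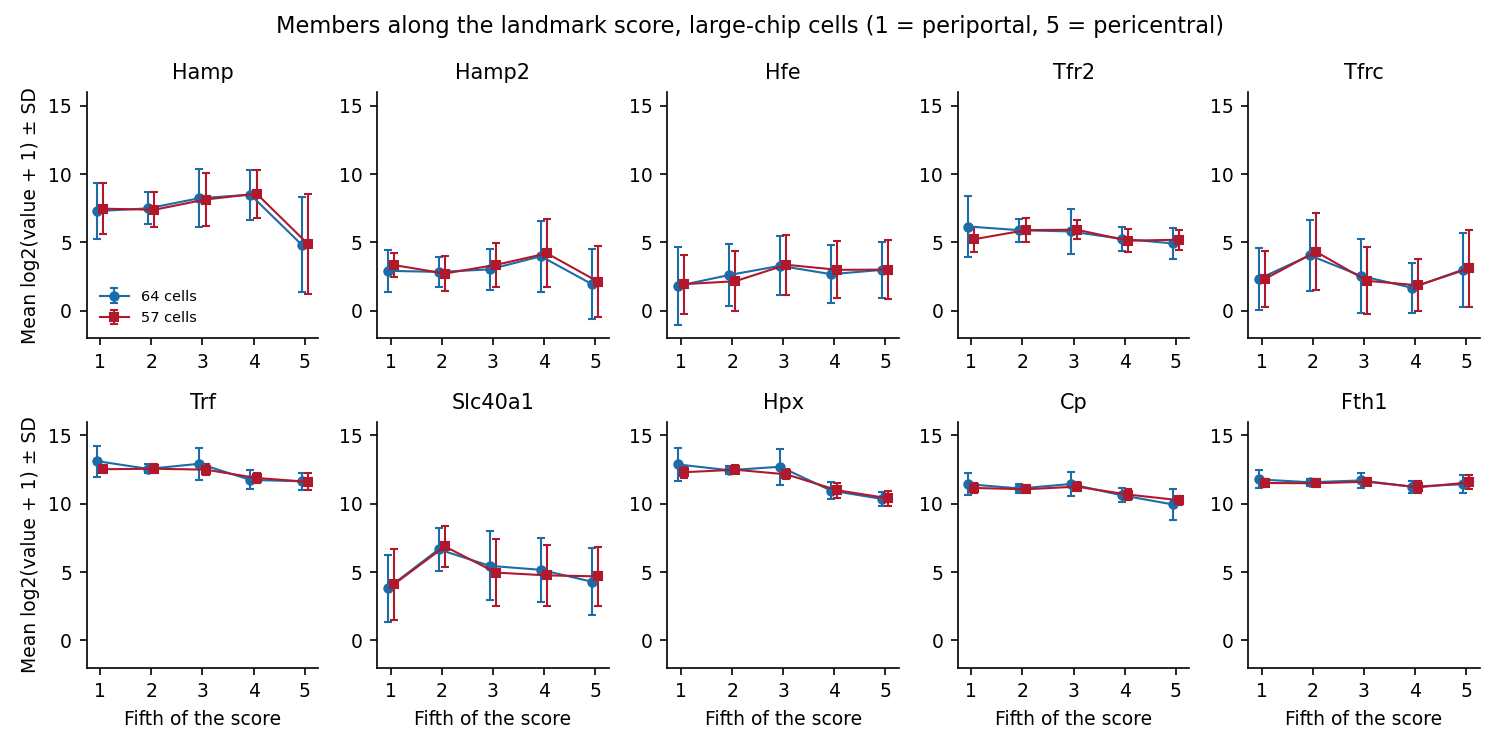
Mean log2(value + 1) of each of the 10 genes in 5 bins of the landmark score, from periportal (1) to pericentral (5), with bars for the SD over cells, in the 64 large-chip cells under 50% spike-in (blue circles) and the 57 of them with a summed value under 3000000 (red squares). Hpx, Trf and Cp are lower in the pericentral bins, Hamp is lowest in the last bin, and Fth1 is nearly flat.

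The secreted carriers and Tfr2 were higher on the periportal side over all cells. A gene was called graded where its rho with the score had 1 sign in all 3 chips and a mean of at least 0.2 in size. Of the 10 genes, 4 were graded periportal, against 16.5% of all tested genes, and 0 pericentral, against 0.613%. They were Hpx (mean rho -0.525 ± 0.128, SD, n = 3 chips), Cp (-0.474 ± 0.044), Trf (-0.431 ± 0.156) and Tfr2 (-0.357 ± 0.057). With the number of genes above 0 held constant, the same 4 genes met the rule, as did 7.90% of tested genes. In the cells under 50% spike-in only Trf was graded (-0.418 ± 0.339), where 10.6% of tested genes were graded periportal and 6.00% pericentral; there the 7 medium-chip cells gave 0.107 for Hpx, 0.214 for Cp and 0.036 for Tfr2, while the large and small chips gave -0.787 and -0.839, -0.651 and -0.755, and -0.313 and -0.427.

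Hpx separated the ends of the lobule axis. Over the 64 cells its value ran from 2447 to 47198 in the periportal of 5 bins (13 cells) and from 824 to 2332 in the pericentral one (12 cells), with no overlap. Among all tested genes 0.272% were higher in the periportal bin without overlap and 0.0681% in the pericentral one, and the other 9 genes overlapped between these bins. In the 57 cells Hpx also separated them, from 2447 to 6672 (12 cells) and from 824 to 2332 (11 cells), where 0.352% and 0.431% of tested genes did. There the medians of the 5 bins were 5277, 5747, 4548, 1747 and 1322, so that the widest step lay between bins 3 and 4.

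Trf showed the same shape with overlapping ends. In the 57 cells its medians were 6069, 6189, 5238, 3461 and 2822, and values ran from 4436 to 7248 in the periportal and from 1895 to 8371 in the pericentral bin. The medians of Cp were 2514, 2054, 2150.2, 1679 and 1244, with ranges of 1478 to 3338 and 829.7 to 1861 at the ends. The highest values of all 3 carriers came from large-chip cell 71, with Trf at 84957, Hpx at 98138 and Cp at 18848. That cell had a spike-in share of 35.99%, and its summed value is in the upper range, as for the next cells of Hpx and Trf (24, 53 and 75).

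The carriers also followed each other from cell to cell. Over the 64 cells rho was 0.868 between Trf and Hpx, 0.770 between Hpx and Cp and 0.711 between Trf and Cp, and 0.745, 0.571 and 0.50 with the score held constant. None of the carriers followed Hamp as closely, with rho of 0.277 for Trf, 0.257 for Cp and 0.222 for Hpx. Spike-in share moved with the axis in these cells, with a rho of -0.582 between share and score, and with the carriers (0.625 for Trf, 0.636 for Hpx, 0.497 for Cp). With the share held constant the rho of the carriers with the score was -0.50 for Trf, -0.664 for Hpx and -0.513 for Cp, from -0.681, -0.787 and -0.651 without. In the 57 cells it was -0.673, -0.804 and -0.616, and -0.440, -0.647 and -0.419 with the share held constant.

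**Figure D3:**
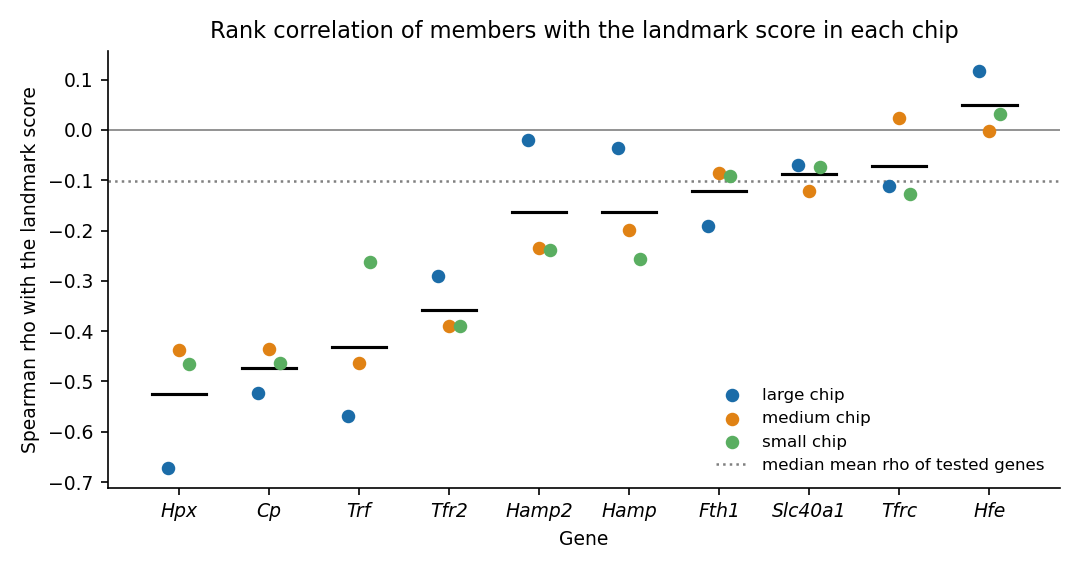
Spearman rho of each of the 10 genes with the landmark score in each chip (points), the mean over the 3 chips (black bars) and the median over all tested genes (dotted line, -0.102). Hpx, Cp, Trf and Tfr2 have means below -0.2 with all 3 chips below 0, and 16.5% of tested genes are graded periportal by this rule. The means of Slc40a1 (-0.088) and Fth1 (-0.122) lie near the dotted line.

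Among the sensors and receptors Tfr2 was graded periportal and Hfe and Tfrc were not. Tfr2, the transferrin receptor that hepatocytes use to sense iron-loaded transferrin, had a rho of -0.291 (large), -0.390 (medium) and -0.389 (small). Over the 57 cells of the large chip its rho was -0.178, and its medians in 5 bins were 45.2, 60, 72.6, 36.5 and 37.9, highest in the middle. Hfe, the MHC class I-like protein that binds transferrin receptors, had 0.118, -0.003 and 0.031, and Tfrc, the transferrin receptor that takes up iron in most cell types, -0.111, 0.023 and -0.128. The means of Hfe (0.049 ± 0.062) and Tfrc (-0.072 ± 0.083) were smaller in size than their SD over chips. Both were above 0 in 71 and 59 of the 149 cells and at a median of 0 in the medium and small chips.

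Ferroportin and ferritin were not graded over all cells but were so without the 7 cells holding 3 or more Kupffer cell markers. By their markers these cells are not all clear Kupffer cells. Medium-chip cell 21 held 3 Kupffer cell markers and 10 hepatocyte markers, and large-chip cell 64 held 3 Kupffer cell markers and 10 endothelial markers. Slc40a1, the ferroportin gene, had a mean rho of -0.088 ± 0.029 with the score, close to the median tested gene (-0.102). It was lowest at the periportal end of the 64 cells: the mean log2 values of 5 bins were 3.81 ± 2.46, 6.66 ± 1.55, 5.46 ± 2.52, 5.16 ± 2.36 and 4.30 ± 2.47. It met the middle-high rule there, as did 1.95% of tested genes, but not in the 57 cells (4.09, 6.88, 4.96, 4.76 and 4.69), where 3.63% did. Fth1 had a mean rho of -0.122 ± 0.059, and in the 64 cells its medians in 3 bins were 3112, 2998 and 2699. Without the 7 cells holding 3 or more Kupffer cell markers the mean rho was -0.232 for Fth1 and -0.206 for Slc40a1, both graded periportal, so that 6 of the 10 genes were graded there, against 25.9% of tested genes. With the number of genes above 0 held constant it was 0.026 for Fth1 and -0.031 for Slc40a1 over all cells.

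**Figure D4:**
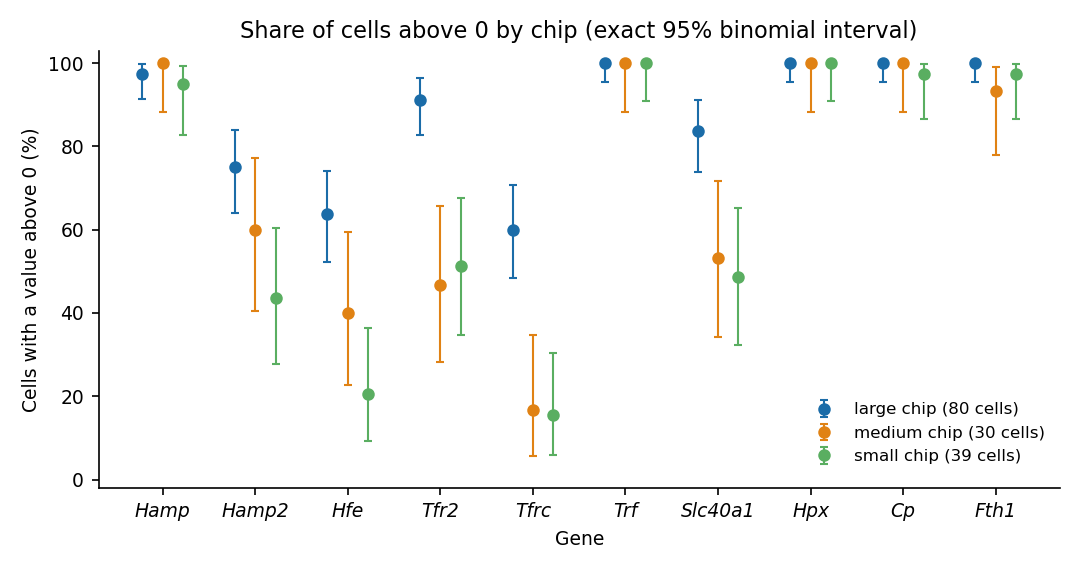
Share of cells with a value above 0 for each of the 10 genes in each chip, in %, with exact 95% binomial intervals. Hamp, Trf, Hpx, Cp and Fth1 are above 0 in at least 93.3% of the cells of every chip, and Hfe, Tfr2, Tfrc and Slc40a1 are found in a larger share of large-chip cells than of the others.

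Between chips the medians of Trf and Hpx differed less than those of Cp and Fth1, which were lowest in the small chip. Trf and Hpx were above 0 in all cells of every chip, with medians from large to small traps of 5131, 3729.7 and 3498 for Trf and 4116, 3412 and 3143 for Hpx. In the same order, medians were 1880.3, 855 and 478 for Cp and 2808, 380.0 and 172 for Fth1. By the ratio of medians, 51.4% of tested genes were past 4-fold for large against medium and 51.6% for large against small. In cells under 50% spike-in the medians were 5219, 9928 and 14211 for Trf and 4202, 7849 and 8678 for Hpx. There they were 1967, 3249.9 and 2903 for Cp and 2978, 4254 and 821 for Fth1. Tfr2 was above 0 in 73 of 80, 14 of 30 and 20 of 39 cells, Hfe in 51, 12 and 8, Tfrc in 48, 5 and 6, and Slc40a1 in 67, 16 and 19. The exact interval of the share in the large chip lay above those in both other chips for 3 of the 10 genes, and for 58.9% of all tested genes. They were Tfr2 (82.8% to 96.4%, against 28.3% to 65.7% in medium-chip and 34.8% to 67.6% in small-chip cells), Tfrc (48.4% to 70.8%, against 5.64% to 34.7% and 5.86% to 30.5%) and Slc40a1 (73.8% to 91.1%, against 34.3% to 71.7% and 32.4% to 65.2%). Chips differ in trap size, spike-in share and number of genes above 0 at once, and these cannot be told apart.

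Past 4-fold between chip means, with a pseudocount of 1, were 2 of the 10 genes for large against medium, 4 for large against small and 2 for medium against small. Of all tested genes, 4.65% were past 4-fold lower in the large than in the medium chip, 17.3% higher and 5.03% lower in the large than in the small chip, and 12.4% higher in the medium than in the small chip. Hamp2 (log2 ratio 2.32), Hfe (2.66) and Tfrc (2.00) were higher in the large than in the small chip and Slc40a1 (-3.28) lower. In the large against the medium chip Hfe (-3.35) and Slc40a1 (-3.34) were lower, and in the medium against the small chip Hfe (6.02) and Tfrc (3.76) were higher. Several of these means rest on 1 cell. The Hamp2 value of 1346 in large-chip cell 38 made up 61.3% of the large-chip sum. In the medium chip the highest cell made up 89.8% of the Tfrc sum and 85.6% of the Slc40a1 sum. The Hfe value of 4371 in medium-chip cell 9, which has a spike-in share of 91.0%, made up 66.2% of the medium-chip sum, and in cells under 50% spike-in the log2 ratio of large to medium was 3.35, the opposite sign. Over all cells Hamp was not past 4-fold in any pair (-0.76, 0.44 and 1.199). In cells under 50% spike-in its log2 ratio was 2.21 for medium against small (7 and 12 cells), past 4-fold as for 11.7% of tested genes, and -1.96 for large against medium.

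The cells with the highest Slc40a1 carried markers of macrophages or of endothelium in part. Kupffer cells, which recycle iron from red cells, are known for high ferroportin and ferritin. Slc40a1 was 25873 in medium-chip cell 4 and 20722 in small-chip cell 1, each with 10 of 10 Kupffer cell markers at 10 or more, and 2668 in medium-chip cell 1, with 9. These cells also had 9, 6 and 9 of 10 hepatocyte markers at 10 or more. Small-chip cells 36 and 17, at 12631 and 3933, had 0 Kupffer cell markers and all 10 hepatocyte markers, and large-chip cell 31, at 2169.5, had 1 Kupffer cell and 10 endothelial markers. Tfrc was highest in medium-chip cell 1, at 1859.8, ahead of 236 in large-chip cell 44, which had no Kupffer cell marker. Fth1 was highest in medium-chip cell 1 (16736), followed by medium-chip cell 21 (11863.5, 3 markers) and small-chip cell 1 (10505). Hamp was 3.14 in small-chip cell 1, 183 in medium-chip cell 4 and 141 in medium-chip cell 1.

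**Figure D5:**
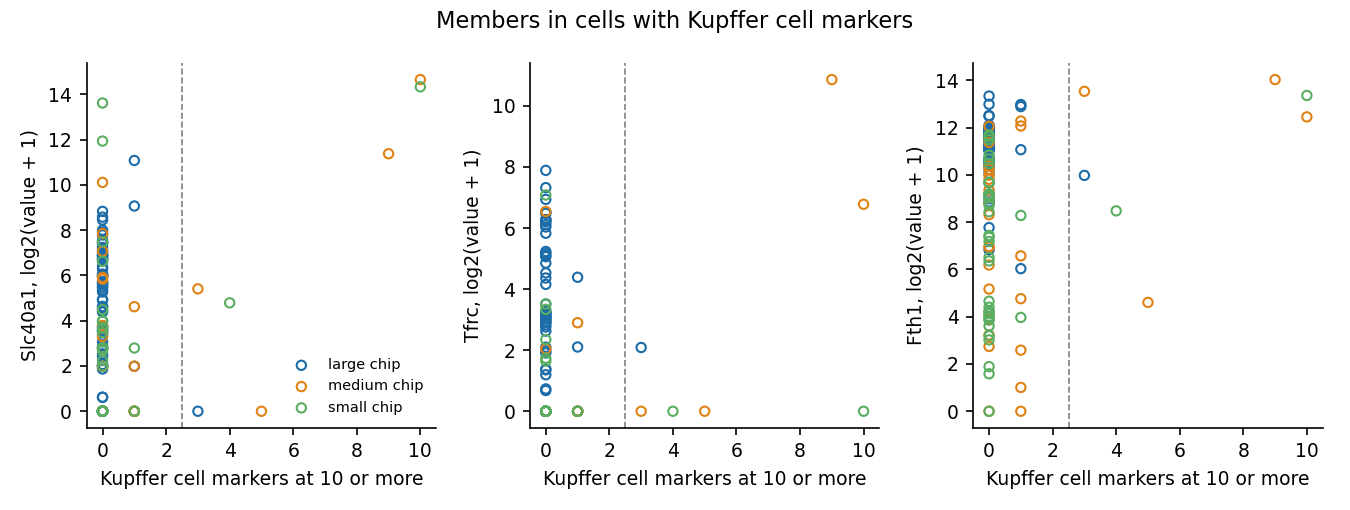
Slc40a1, Tfrc and Fth1 as log2(value + 1) against the number of 10 Kupffer cell markers found at 10 or more in each cell; points are cells, colours are chips, and the dashed line separates the 7 cells with 3 or more markers. The highest values of Slc40a1 and Tfrc are among cells with 9 or 10 markers, and a cell with 0 markers has the next Slc40a1 value after the first 2.

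Without the 7 cells holding 3 or more Kupffer cell markers, the log2 ratio of large to medium for Slc40a1 was 0.64 in place of -3.34, and that of medium to small for Tfrc was -0.14 in place of 3.76. Tfrc then turned from -1.76 to 2.09 for large against medium, past 4-fold as for 18.6% of tested genes, and went from 2.00 to 1.95 for large against small, where it was no longer past 4-fold. Fth1 went from 1.83 to 2.37 for large against small, past 4-fold as for 17.5% of tested genes. Slc40a1 then still differed between the large and small chips (-2.19), with small-chip cells 36 and 17 still included, and it was 2.83 lower on the log2 scale in the medium than in the small chip. The summed level of the 10 Kupffer markers ran from 0 to 509.8 (large), 60405 (medium) and 85031 (small), and that of the 10 endothelial markers from 0 to 122572, 432.4 and 76026. The part of the cells with endothelial markers in these results was not tested.

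The 6 genes named by rule as most like Hamp had a lower rho to it than Hamp2 had. Among the tested genes with a mean above that of the median gene, the 6 with the highest rho to Hamp over the 64 cells were 1100001G20Rik (0.554), Pemt (0.544), Ccnd1 (0.488), Rarres2 (0.480), Aspg (0.438) and Cps1 (0.423), against 0.771 for Hamp2 and 0.016 for the median tested gene. Pemt makes phosphatidylcholine from phosphatidylethanolamine, Rarres2 encodes the chemoattractant chemerin, and Cps1 opens the urea cycle. In the medium and small chips rho was 0.593 and 0.439 for 1100001G20Rik and 0.361 and 0.309 for Pemt, but -0.023 and -0.012 for Ccnd1, which was at a median of 0. These values describe the cells, which share 1 mouse and 1 normalisation, and the genes were picked as the highest of many.

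The wider iron and heme genes lay near the average gene on the axis. Of 14 tested genes of BMP and iron sensing, 1 was graded periportal and 0 pericentral, with a median of the mean rho of -0.066. The graded one was Tmprss6, the membrane protease that restrains hepcidin (-0.215 ± 0.075), and Stat3 (-0.164), Bmpr1a (-0.145) and Acvr2a (-0.126) were not graded. Of 16 genes of iron uptake, storage and control by iron regulatory proteins, 2 were graded periportal (Slc39a14, an importer of iron not bound to transferrin, -0.217, and Slc39a8, its relative, -0.201) and 0 pericentral, with a median of -0.102. The ferritin light chain gene Ftl1 had -0.145 and Steap2 -0.153. Of 10 genes of heme scavenging and breakdown, Hp, which encodes haptoglobin, the plasma binder of hemoglobin, was graded periportal (-0.490 ± 0.091), and 0 pericentral, with a median of -0.063; Hmox1, the heme oxygenase, had 0.157. Of 8 heme synthesis genes 0 were graded, with a median of -0.075 and Alas1, the enzyme of the first step, at -0.200 ± 0.170. The median over all tested genes was -0.102, and 16.5% of them were graded periportal.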

How the data were processed

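RNA was measured in 149 single cells of 1 mouse on 3 chips. Per the submitters' processing notes, the authors used CASAVA 1.8.2, Bowtie 0.12.9 and RSEM 1.2.3 with mm10. The deposited table holds a normalised signal per gene and cell with decimals, made from expected counts; its name mentions SCnorm and WaveCrest, and the settings are not given in the sources used here. Read depth is unknown, so summed values and spike-in shares stand in for it. Every column was mapped to a labelled cell, and 0 were left out.

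The 10 genes, the gene lists and the rules were chosen with earlier results of these data known. Values were used as log2(value + 1). Genes above 0 in at least 20% of cells were compared. Named besides the 10 genes are, by rule, up to 4 genes per iron list with the largest mean rho in size, the 6 genes most like Hamp, the landmarks and cell type markers. Symbols absent from the table were matched by an older symbol through RefSeq. Rules of size replace tests, since each chip is 1 sample. No doublet caller was run. Rules were tested on simulated data. Scripts ran under scipy 1.17.1, pandas 2.3.3, numpy 2.4.6, Biopython 1.88, matplotlib 3.10.9 and Python 3.11.15, with GENCODE M21.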

Additional observations from a re-analysis of the deposited data

How the results depend on the processing

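Alternatives changed the pseudocount (0.1 or 10), the scaling, the landmarks, the bins, the cells and the chips. The middle difference of Hamp along the column order (0.42) turned to -0.60 without the large chip and to -0.076 with bins within chips, and was 1.110 with each cell rescaled to the same sum, 0.080 with 5 bins, 0.823 without the small chip and 0.816 in large-chip cells with sums under 3000000, all within the SD over chips of the value over all cells. Along the score (0.10) it was 0.818 rescaled, turned to -0.0003 with a pseudocount of 10 and to -0.60 without the large chip, and became 1.13 under 50% spike-in, 1.23 with 5 bins, 1.22 in large-chip cells under 50% spike-in (1.15 rescaled) and 1.07 in large-chip cells with sums under 3000000. Genes graded periportal went from 4 to 1 under 50% spike-in and to 6 without Kupffer-marked cells or without the large chip. Without the large chip Hamp (mean rho -0.227) and Hamp2 (-0.236) were added, where 30.2% of tested genes were graded periportal. By Pearson r Hamp (-0.241) was added, giving 5 genes, against 9.77% of tested genes. With Cyp2e1 and Cyp2f2 alone as landmarks Tfr2 (-0.169) was no longer graded, leaving 3 genes, against 5.28%. Genes past 4-fold went from 2 to 1 under 50% spike-in and to 4 by medians (large against medium), from 4 to 1 with a pseudocount of 10 or rescaling (large against small), and from 2 to 1 by medians (medium against small). The cause was not tested. Of 77 alternative values of these results, 62 kept their direction and stayed within the spread or within 1.5 times the count. These include the counts of middle-high and of pericentral graded genes, which were 0 in all of these settings. Such counts had little room to change, since 0.0681% and 0.613% of tested genes met these rules over all cells. Of 90 alternative values of the mean rho of single genes, 68 stayed within the SD over chips and 22 did not. The large-chip restrictions and the removal of Kupffer-marked cells were chosen after seeing the data. Hfe and Tfrc were at 0 in most medium-chip and small-chip cells. No paired analysis was possible because cell numbers only name cells and each chip is 1 sample.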
